A study of Mus musculus with 2 samples.

Results

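The genes of heme synthesis and breakdown described here are 9 enzyme genes, Alas1, Alas2, Alad, Uros, Urod, Cpox, Ppox, Fech and Hmox1, taken by symbol from the gene tables of 2 adrenal gland libraries. All 9 were found among 55536 gene identifiers, and all 9 were among the 13569 genes tested, those whose expected count averaged 50 or more. The libraries come from 2 female mice of strain B6CASTF1/J, the F1 cross of C57BL/6J and CAST/EiJ, aged 18-20 months, with no treatment named in the labels. They form 1 group with 1 library per animal, made from 300 ng of total RNA after ribosomal RNA reduction, and are called animal 1 and animal 2 after their biological replicate numbers. Both samples carry the same donor identifier, and a description field of animal 2 repeats the name given to animal 1, so that the separate origin of the RNA rests on the replicate numbers and the other label fields. With 2 libraries of 1 group, differences between the animals include those of library preparation and no test was run.

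Heme is an iron-holding ring that sits in hemoglobin, in respiratory chain proteins and in every cytochrome P450. Its synthesis starts in mitochondria with ALA synthase, continues through porphyrin intermediates in the cytosol, and returns to mitochondria for the last oxidations and the insertion of iron. Alas1 is the ALA synthase of most tissues and Alas2 that of red cell precursors, while heme oxygenase opens the ring and frees the iron. In the adrenal cortex most steroid hydroxylases are P450 enzymes and carry heme.

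Expected counts over genes summed to 35452819 in animal 1 and 34879073 in animal 2. Of the adrenal markers, 7 of 7 cortex genes and 7 of 7 chromaffin genes had 1 TPM or more in each library. The libraries differed in other tissue: 9 striated muscle markers summed to 190.8 TPM in animal 1 and 1.77 in animal 2, and 8 adipocyte markers to 3354 and 2144 TPM. Of 3 tested hepatocyte markers, Cyp2e1 had 81.80 and 95.57 TPM and was higher in animal 2, while Apoc3 had 3.91 and 2.38 TPM and Alb, which met the 2-fold rule given below, 11.25 and 3.45 TPM. The part of these tissues in the results below was not tested. In bulk tissue, fewer cells of a type and less RNA per cell cannot be told apart.

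Alas1 stood far above every other gene of the pathway. The annotation divides its reads mainly between 2 short models, and their sequences are shown first because the level of Alas1 depends on how reads are shared between them. Alas1-206 is a processed transcript with 10 exons and 1905 bases that starts inside the gene, and Alas1-211 is a coding model with 4 exons and 460 bases whose 3′ end was not found. They share 153 bases of 1 exon at chr9:106243243-106243395 (GRCm38, minus strand), which is the last exon of Alas1-211 and the second of Alas1-206, and together they cover 2212 bases. The lines below give the exon of Alas1-206 that no other Alas1 model has (80 bases, chr9:106243555-106243634) and the last 30 bases of the exon that precedes the shared one in Alas1-211 (chr9:106246759-106246788), each followed by the shared exon in capitals, from GENCODE M21 transcripts, 5′ to 3′.
Alas1-206: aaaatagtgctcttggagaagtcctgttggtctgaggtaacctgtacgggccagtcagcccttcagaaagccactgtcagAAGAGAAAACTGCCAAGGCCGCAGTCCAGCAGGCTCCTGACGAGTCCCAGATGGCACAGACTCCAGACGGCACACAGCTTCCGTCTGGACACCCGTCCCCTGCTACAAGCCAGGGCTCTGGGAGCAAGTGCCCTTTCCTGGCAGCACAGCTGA
Alas1-211: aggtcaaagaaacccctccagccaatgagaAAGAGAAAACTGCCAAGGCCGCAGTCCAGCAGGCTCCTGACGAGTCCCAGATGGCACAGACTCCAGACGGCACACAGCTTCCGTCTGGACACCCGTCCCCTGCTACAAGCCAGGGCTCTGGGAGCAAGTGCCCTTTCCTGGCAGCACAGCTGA
Alas1-211 has 0 exon bases that no other Alas1 model holds.

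Alas1, the first and rate-limiting enzyme (ENSMUSG00000032786.16, mm10 chromosome 9, 106233455 to 106248654), reached 282.33 TPM in animal 1 and, in animal 2, 360.98 TPM. TPM is a transcript abundance corrected for transcript length and scaled to a fixed total per library. Both animals were high, and the mean of 321.7 ± 55.6 TPM (SD, n = 2) lay above 99.2% of the detected protein-coding genes. Alas2, the erythroid isoenzyme (chromosome X, 150547375 to 150570638), had 11.16 and 7.05 TPM, and the lower value was that of animal 2. Alas1 TPM exceeded Alas2 TPM 25.3-fold in animal 1 and 51.2-fold in animal 2, a log2 ratio of 5.17 ± 0.72 (SD, n = 2). The annotated transcripts of the pair share 0 stretches of 31 bases, so no read of this length or more can match both exactly. Alignment with mismatches was not tested.

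The cytosolic enzymes came next in the pathway. Alad joins ALA into porphobilinogen (chromosome 4, 62509169 to 62519918), and it had 34.27 and 27.95 TPM. Uros closes the porphyrin ring (chromosome 7, 133686243 to 133710072) and stood at 4.98 and 4.19 TPM. Urod, which removes carboxyl groups from the ring (chromosome 4, 116989965 to 116994413), had 34.70 and 35.02 TPM. Thus Uros was the lowest of the 9 genes, while Alad and Urod, on either side of it in the pathway, lay several-fold above it in both animals.

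The mitochondrial end of the pathway spanned a wide range too. Cpox, which makes protoporphyrinogen (chromosome 16, 58670292 to 58717636), had 5.22 and 4.38 TPM. Ppox, which oxidises it to protoporphyrin (chromosome 1, 171275990 to 171281186), had 7.96 and 13.01 TPM. Ferrochelatase, encoded by Fech, inserts the iron (chromosome 18, 64452914 to 64490251) and had 44.76 and 49.21 TPM. Fech was the second highest of the 9 genes in both animals, and Ppox was the one synthesis gene apart from Alas1 whose value in animal 2 lay above that of animal 1 with intervals apart. Hmox1, the inducible heme oxygenase (chromosome 8, 75093621 to 75100589), had 18.46 and 20.17 TPM, near the middle of the set in both animals.

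By mean TPM the order was Alas1, Fech, Urod, Alad, Hmox1, Ppox, Alas2, Cpox and Uros. Fech lay above 89.9% of detected protein-coding genes, and Cpox and Uros above 28.3% and 27.0%. Urod and Alad were not separated, since their log2 ratio of TPM of 0.17 was under its SD of 0.22 (n = 2). Ppox and Alas2 changed places between the animals, with log2 ratios of TPM of -0.49 and 0.88. Cpox exceeded Uros by 0.07 and 0.06 on the log2 scale of TPM, and Uros stood above Cpox in the second transcript table and by the deposited posterior mean TPM. The 9 genes summed to 443.8 and 522.0 TPM, of which Alas1 made up 63.6% and 69.2%. Without Alas1 the other 8 genes, which differed in both directions, summed to 161.5 and 161.0 TPM. By this measure the difference between the 2 sums was almost all Alas1. In the second transcript table the other 8 genes summed to 349.6 and 322.2 TPM, lower in animal 2.

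**Figure D1:**
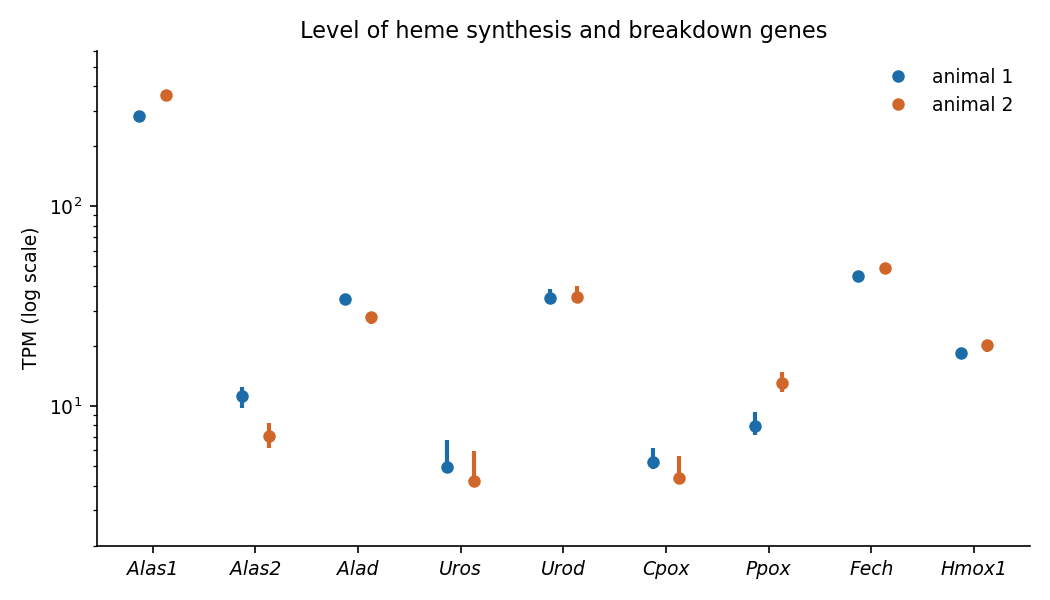
TPM of the 9 genes on a log axis, in pathway order with Hmox1 last, for animal 1 (blue) and animal 2 (orange); points are the deposited TPM and lines the deposited interval of each TPM, hidden by the point where narrow. Alas1 stands at 282.33 and 360.98 TPM, and Uros and Cpox lie lowest.

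Levels between genes depended on which transcripts the length correction used. Expected counts are estimated reads per gene. They were divided by the length of the APPRIS principal transcript, the model annotated as the main one, and scaled over nuclear protein-coding genes. On this scale Alas1 had 416.7 ± 55.0 and Hmox1 76.5 ± 1.53 (SD, n = 2). For TPM scaled over the same genes the means were 1061.9 and 63.9. By principal length the log2 ratio of Alas1 over Hmox1 was 2.44, in place of 4.05 ± 0.16 by TPM. That of Alas1 over Alas2 was 3.76 in place of 5.17. Alas1 remained first and Cpox and Uros last, but Fech fell from the second place to the fifth, its principal transcript being 6571 bases long. This scale was chosen after seeing the data.

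The transcript tables divide Alas1 differently by TPM and by counts. Alas1-211 held 142.80 and 183.72 TPM, or 50.6% and 50.9% of the gene's TPM, but 2004 and 2354 expected counts, or 17.6% and 17.9% of its counts. Alas1-206 held 8645 and 8553 expected counts, or 75.8% and 65.1%, with 43.6% and 37.0% of the TPM. The 2 models together took 94.2% and 87.9% of Alas1 TPM in the first quantification and 76.8% and 73.1% in the second. The full-length coding model Alas1-207 is 3399 bases long and had 34 and 82 expected counts in the first quantification, against 2721 and 3139 estimated counts in the second. Alas1-201, another coding model, had 96 and 855 expected counts in the first quantification, against 32 and 106 in the second. These last 2 models were singled out after their values were seen. The gene count was steadier, at 11406 and 13142 in the first quantification and 12645 and 14750 in the second.

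**Figure D2:**
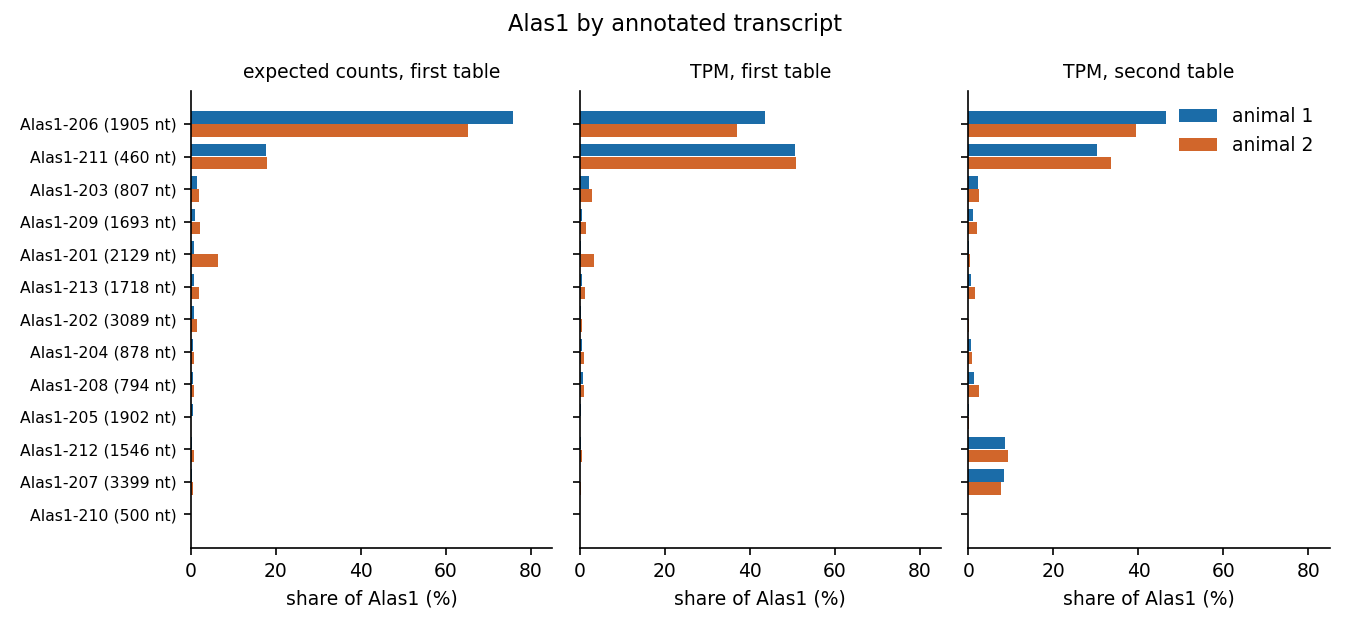
Share of Alas1 in each of its 13 annotated transcripts (length in nucleotides beside the name) by expected counts and TPM of the first quantification and TPM of the second; blue bars are animal 1 and orange bars animal 2. Alas1-206 leads by counts and Alas1-211 by TPM in the first quantification, and Alas1-206 leads by TPM in the second.

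The leading transcript by TPM was the same in both animals for 9 of 9 genes in each quantification, and the same in both quantifications for 6, the exceptions being Alas1, Uros and Fech. Hmox1-201, a coding model, made up 99.3% and 96.6% of Hmox1 TPM in the first quantification and 99.5% and 98.0% in the second. The coding model Cpox-201 held 91.2% and 94.1% of Cpox in the first and 80.0% and 83.9% in the second, which gave 17.3% and 12.8% to the retained-intron model Cpox-205. Urod moved further, from 81.6% and 70.7% for the coding model Urod-201 in the first quantification to 52.1% and 48.4% in the second. There the retained-intron model Urod-205 had 40.6% and 37.3%, against 1.8% and 0.5% in the first. Alad-201 held 92.6% and 94.9% of Alad in the first quantification and 54.3% and 59.2% in the second, which gave 42.9% and 37.2% to Alad-202. Fech-201, a coding model of 2059 bases, led in the first quantification with 50.2% and 51.8%. In the second, Fech-215, a model of 495 bases annotated for nonsense-mediated decay, led with 29.8% and 40.4%. Fech-213, a coding model without a 3′ end, had 21.5% and 24.3% in the first, and the processed transcript Fech-212 had 21.3% and 13.8% in the second. For Uros, the coding model Uros-203 led the first with 42.9% and 49.9% and was listed at 0 in the second, where Uros-201, also coding, had 41.9% and 49.0%. Uros-202, another coding model, had 10% and 13.1% in the first.

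For Alas2, the coding model Alas2-201 led in both quantifications, with 59.2% and 71.5% of TPM in the first and 66.9% and 59.4% in the second. The second coding model Alas2-202 held 15.9% and 16.5% in the first, and 0.0% and 13.1% in the second. The processed transcript Alas2-204 held 24.9% and 12.1% in the first. Ppox-201, the coding model of Ppox, had 54.1% and 43.7% in the first and 50.6% and 30.3% in the second. Of its retained-intron models, Ppox-205 had 21.6% and 25.5% in the first, and Ppox-206 had 12.2% and 15.9% in the second.

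Between the animals, no gene of the 9 was at least 2-fold apart. That rule asked for a ratio of 2 either way after TMM scaling, an expected count averaging 50 or more and deposited TPM intervals that do not overlap, and 469 of 13569 genes (3.46%) met it, 232 higher and 237 lower in animal 2. Under spike-in scaling the split was 393 higher and 152 lower, and still 0 of the 9 genes met the rule. The sources used here do not give the level of the deposited intervals. By the intervals alone, 2 of the 9 genes were higher in animal 2 (Alas1 and Ppox) against 20.6% of all genes tested, and 2 were lower (Alas2 and Alad) against 12.5%. The median log2 ratio of the 9 genes, animal 2 over animal 1, was -0.14, against -0.01 for all genes tested. Scaling by spike-in totals moved the median of all genes from -0.01 to 0.21 and that of the 9 genes to 0.08.

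Ppox had 531 and 758 expected counts, a log2 ratio of 0.60 with a 95% interval from counting error of 0.44 to 0.76. Alas1 was higher in animal 2 by 0.29 (0.25 to 0.32), with 11406 and 13142 expected counts. In the other direction Alas2 had 672 and 435 expected counts, a log2 ratio of -0.54 (-0.72 to -0.37). Alad, with 1493 and 1114, had -0.34 (-0.45 to -0.23). These 4 genes kept their direction under spike-in scaling, where Ppox stood at 0.82, Alas1 at 0.51, Alas2 at -0.32 and Alad at -0.12. The intervals cover counting error alone and hold no spread between animals. Without molecular identifiers, several reads can come from 1 molecule.

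For the other 5 genes the deposited intervals overlapped. Fech and Hmox1 lay closest to equality, at 0.04 and 0.06 on the log2 scale, and 91.2% and 85.4% of the genes tested were further apart than they were. Uros at -0.14, Urod at -0.18 and Cpox at -0.26 were lower in animal 2 after TMM scaling. Under spike-in scaling Uros and Urod changed sign, to 0.08 and 0.04, and Cpox stood at -0.03. Under total-count scaling Fech changed sign to -0.02, and in the second transcript table Fech and Hmox1 stood at -0.01 and -0.02.

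**Figure D3:**
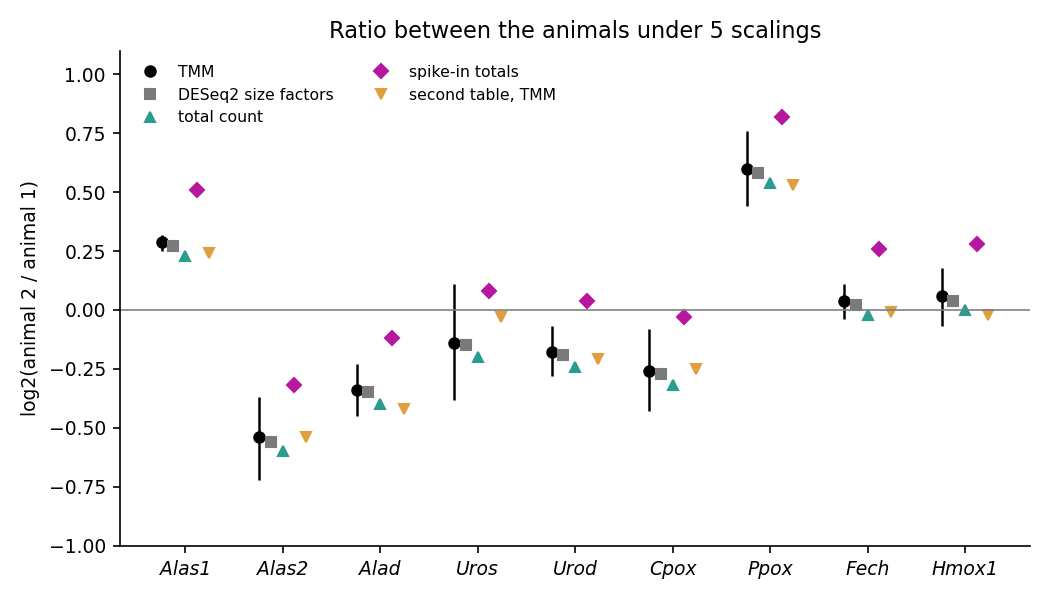
Log2 ratio of animal 2 over animal 1 for the 9 genes under 5 scalings; the black line is the 95% interval from counting error around the TMM value. Ppox and Alas1 lie above 0 and Alas2 and Alad below 0 under all 5, while the spike-in values sit higher than the others for each gene.

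Transcripts that the annotation classes as retained introns held a large share of the counts of Uros and Ppox. Uros had 53 of 289 expected counts in such a transcript in animal 1 and 115 of 248 in animal 2, or 18.4% (95% Wilson interval 14.3% to 23.2%) and 46.3% (40.3% to 52.6%). The second quantification gave 18.3% and 45.2%. Each of these counts belongs to Uros-206, which keeps 1 intron of Uros-203, 492 bases at chromosome 7, 133690594 to 133691085. Without that transcript, Uros had 236 and 133 expected counts and a log2 ratio of -0.74 (-1.05 to -0.44), against -0.14 with it. The second quantification gave -0.61 (-0.89 to -0.32) without it.

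Ppox had 243 counts in retained-intron transcripts in animal 1 and 411 in animal 2, or 45.8% and 54.2% of its expected counts. Its other counts, 288 and 347 in the coding model Ppox-201, gave a log2 ratio of 0.35 (0.13 to 0.58). In the second quantification the counts outside retained introns, 283 and 319, gave 0.19 with an interval that includes 0 (-0.04 to 0.42). There Ppox-201 itself had 280 and 250 estimated counts, lower in animal 2, so the direction of the coding model depended on the table. Alas1 had 3.63% and 6.94% in retained-intron transcripts, Urod 6.95% and 10.8%, Fech 3.21% and 4.73%, and Hmox1 0.32% and 1.60%. In the second quantification Urod had 15.9% and 18.1%. Cpox had 3.88% and 3.84% in the first and 18.1% and 13.9% in the second, so its level and direction depended on the table. Alas2 had 0 of 672 and 0 of 435 counts, which allows up to 3 counts. Alad has no such transcript in the annotation. The share was thus higher in animal 2 for 6 of the 7 genes with any such counts, in each quantification.

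The same direction was common to the libraries: among 7226 genes the share was higher in animal 2 for 77.7%, with a median of 2.89% in animal 1 and 4.41% in animal 2. Of the 7 genes, Uros, Ppox, Alas1, Urod and Fech stood above these medians in both animals in the first quantification. In the second, the medians were 3.16% and 4.71%. There Alas1 in animal 1 (3.12%) and Fech in animal 2 (4.32%) lay below them, and Cpox, at 18.1% and 13.9%, lay above both. This comparison was added after seeing the data, and the part of RNA quality or of unspliced RNA in it was not tested.

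**Figure D4:**
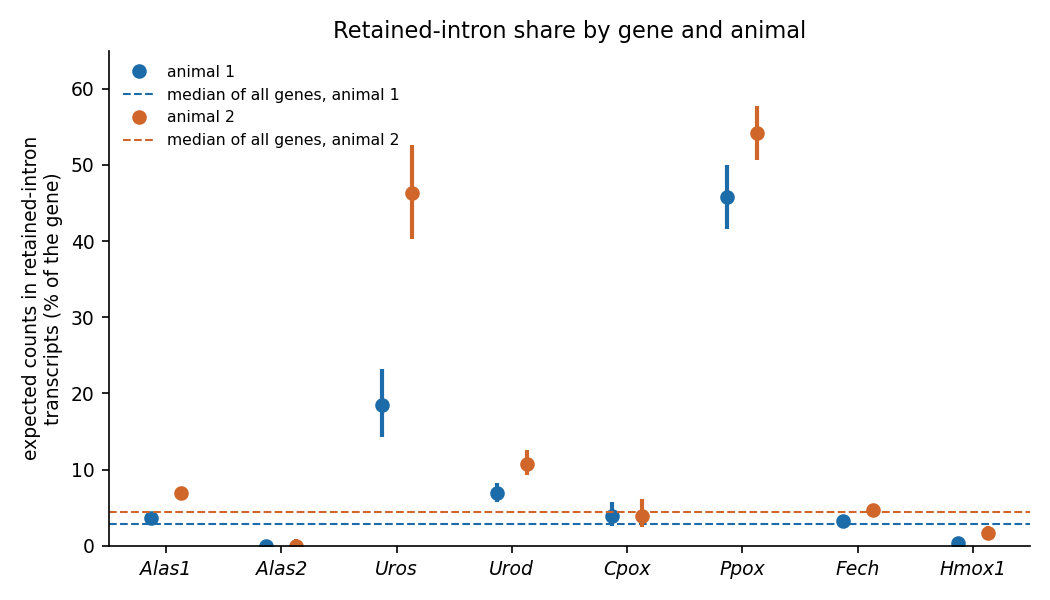
Percent of each gene's expected counts (first quantification) in transcripts annotated as retained introns, for animal 1 (blue) and animal 2 (orange) with 95% Wilson intervals; dashed lines are the medians over 7226 genes. Uros lies at 18.4% and 46.3% and Ppox at 45.8% and 54.2%, and the others stay under 11% in this quantification.

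Overlapping genes touch some of these values. The library kit keeps strand, per the labels' protocols, but the sources used here do not say whether the counting used it. B4galt3 lies on the opposite strand over 17.5% of the exon bases of Ppox and was also higher in animal 2, with 6.74 and 11.42 TPM. Apex2 shares 12.9% of the exon bases of Alas2, on the opposite strand, and had 3.67 and 4.11 TPM. Their part in the Ppox and Alas2 values was not tested. Of the 31-base stretches of each gene, 5.91% in Fech, 3.76% in Cpox and 2.00% in Urod also occur on the same strand in transcripts of other genes, against 0 for Alas1, Alas2, Alad, Ppox and Hmox1.

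The remaining enzymes of the pathway moved little. Hmox2, the constitutive heme oxygenase, had 26.59 and 25.30 TPM. Hmox1 TPM was below Hmox2 TPM in both animals, with a log2 ratio of -0.43 ± 0.14 (SD, n = 2). By counts per length of the principal transcripts the pair was nearly equal, at -0.09. Cox15, which acts in the making of heme A for cytochrome oxidase, had 12.26 and 11.25 TPM, and the biliverdin reductase gene Blvrb had 11.76 and 12.10 TPM. Of the 7 enzymes listed beside the 9, 0 had intervals apart, against 20.6% of all genes tested higher and 12.5% lower. After TMM scaling 6 were lower in animal 2, and under spike-in scaling 6 were higher.

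Genes that carry or bind heme and its precursors showed no common direction by their intervals. Of 16 tested heme and porphyrin carriers and binders, 3 were higher and 4 lower in animal 2 by their intervals. Over all genes tested the shares were 20.6% and 12.5%. The median log2 ratio of the 16 was -0.09. After TMM scaling 5 of the 16 were higher and 11 lower in animal 2. Under spike-in scaling 13 were higher and 3 lower. The mitochondrial carrier Slc25a39 had 124.43 and 140.56 TPM, and the heme-binding membrane protein gene Pgrmc1 148.33 and 176.42 TPM. Tspo, a porphyrin-binding protein of the outer mitochondrial membrane, had 150.89 and 119.20 TPM, and the porphyrin transporter gene Tmem14c 59.06 and 53.00 TPM. The first pair was higher and the second pair lower in animal 2. Under spike-in scaling the log2 ratio of Tspo was -0.17 and that of Tmem14c 0.02.

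Of 13 tested iron genes, 0 were higher and 4 lower by their intervals, against 20.6% and 12.5% of all genes tested. Their median log2 ratio was -0.01. The ferritin chains led, with 922.55 and 941.01 TPM for Fth1 and 484.62 and 433.70 TPM for Ftl1. The iron exporter gene Slc40a1 met the 2-fold rule, with 5.16 and 2.07 TPM. Its log2 ratio was -1.03 after TMM scaling and -0.81 under spike-in scaling, where it no longer reached 2-fold. Transferrin, Trf, had 66.90 and 52.81 TPM, the ferritin receptor gene Ncoa4 69.43 and 74.49 TPM, and mitochondrial ferritin, Ftmt, was listed at 0 in both.

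**Figure D5:**
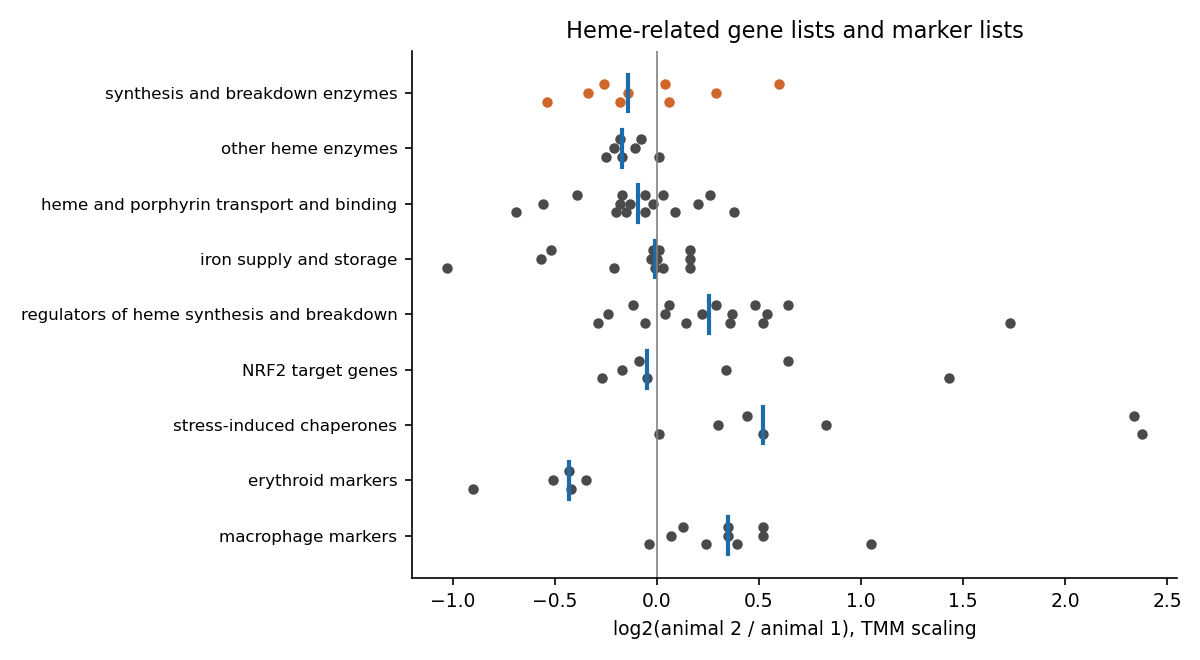
Log2 ratio of animal 2 over animal 1 (TMM scaling) of each tested gene in 9 lists, with the list median as a blue bar; the 9 synthesis and breakdown enzymes are orange. The enzymes spread from -0.54 to 0.60, the 5 erythroid markers lie below 0 and the 7 stress-induced chaperones at or above 0.

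Of 16 regulators of the pathway tested, 10 were higher and 1 lower by their intervals, against 20.6% and 12.5% of all genes tested, with a median log2 ratio of 0.26. Nr1d1, the heme-binding nuclear receptor REV-ERB alpha, a known repressor of Alas1, had 41.07 and 68.13 TPM, higher in the same animal as Alas1. Lonp1, the protease that degrades ALAS1 in mitochondria, had 201.54 and 211.23 TPM, and Clpx, the unfoldase that acts on ALA synthase, 20.90 and 20.12 TPM. Nfe2l2, which encodes the activator NRF2 of Hmox1, had 28.74 and 34.94 TPM. The small MAF gene Maff met the 2-fold rule, with 1.25 and 4.26 TPM. Gata1, the erythroid activator of Alas2, was listed at 0 and 0.02 TPM.

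Hmox1 is a known target of NRF2 and of heat shock factor, so other targets were set beside it. Srxn1, a sulfiredoxin gene, had 60.24 and 165.04 TPM and met the 2-fold rule, and Txnrd1 had 27.58 and 42.96 TPM. G6pdx and Gclm had 64.57 and 58.90 TPM and 26.78 and 24.94 TPM. By their intervals, 20.6% of all genes tested were higher in animal 2 and 12.5% lower. Of 7 tested NRF2 targets, 3 were higher and 1 lower by their intervals, with a median log2 ratio of -0.05. Of 7 stress-induced chaperones, 6 were higher in animal 2 by their intervals, with a median of 0.52, and Hspa1a and Hspa1b, near-identical copies whose counts may be split arbitrarily, met the 2-fold rule with 14.76 and 77.21 TPM and 35.55 and 191.52 TPM. Beside these, Hmox1 differed by 1.04-fold between the animals and its intervals overlapped.

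The steroid P450 genes, whose products carry heme, and their electron donors summed to 9612 and 10876 TPM. Cyp11b1 had 2622.25 and 2285.48 TPM, Cyp11a1 2334.55 and 2034.28, and Cyp21a1 3567.73 and 4885.86, so that Cyp21a1 alone of these 3 was higher in animal 2. Fdx1, the ferredoxin that hands electrons to the mitochondrial P450 enzymes, met the 2-fold rule with 378.21 and 1004.06 TPM.

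Alas2 and the hemoglobin genes were both lower in animal 2. After TMM scaling so were 7 of 7 chromaffin markers, 6 of them with intervals apart (median log2 ratio -0.36), and 7 of 7 tested adipocyte markers (median -0.68). Under spike-in scaling, 5 chromaffin markers were lower and 2 higher (median -0.14), while 7 of 7 adipocyte markers stayed lower (median -0.46). Of 14 erythroid markers found, 5 were tested, and 5 of 5 had lower values in animal 2, 4 of them with intervals apart. By intervals, 12.5% of all genes tested were lower. The median log2 ratio of the 5 erythroid markers was -0.43, and -0.21 under spike-in scaling. The 14 genes summed to 2056 and 1579 TPM. Hba-a1 had 746.19 and 570.86 TPM and Hbb-bs 686.51 and 529.33 TPM. Of the defining genes of red cell precursors, Epb42, Klf1, Hemgn, Trim10 and Rhag stood under 0.1 TPM in both animals. The alpha genes (Hba) are near-identical copies of each other, as are the beta genes (Hbb), so the split of counts within each kind is uncertain. The part of blood or of the other tissues in Alas2 was not tested.

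Of 14 markers of macrophages, which break down heme through Hmox1, 10 had 1 TPM or more in both animals. Of 10 tested markers 6 were higher and 0 lower in animal 2 by their intervals, against 20.6% and 12.5% of all genes tested. Their median log2 ratio was 0.35, and the 14 markers summed to 119.3 and 143.8 TPM. C1qa had 15.28 and 22.64 TPM and Lyz2 51.92 and 52.17 TPM, and Vcam1 met the 2-fold rule with 3.14 and 6.33 TPM. Of the others, Spic and Clec4f, markers of heme-recycling spleen macrophages and of liver macrophages, stood under 0.1 TPM in both animals. The part of these cells in the Hmox1 level was not tested.

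The bases before the Alas2 start are shown because Alas2 is the erythroid gene of the set and lay lower in animal 2 beside the hemoglobin genes. The line below gives chrX:150547167-150547374 (plus strand, RefSeq, GRCm38.p6), 208 bases that end before the first annotated exon base, with a GATA-type hexamer in capitals, which reads AGATAA on the reverse strand.
Alas2: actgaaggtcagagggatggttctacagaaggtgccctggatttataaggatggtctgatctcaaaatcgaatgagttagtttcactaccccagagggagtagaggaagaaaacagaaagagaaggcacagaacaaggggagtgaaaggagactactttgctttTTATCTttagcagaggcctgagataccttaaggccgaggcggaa
Windows from 250 bases before to 50 after a start site were found for 7 of the 9 genes, 10 windows in all, and were searched on both strands for the hexamers AGATAA and TGATAA, for the hexamers AGATAG and TGATAG, for CACCC and for AAGGTCA. The 4 hexamers share a GATA core. At least 1 hexamer was found in 29.8% of 32851 windows of this length, CACCC in 57.5% and AAGGTCA in 4.72%. The Alas2 window held 1 hexamer, 86 bases before the start site, 3 CACCC and 1 AAGGTCA, and the 2 Alas1 windows held 0 hexamers. Cpox had 3 hexamers in its window and an inner start site of Uros had 2. The 2 Uros models that start near this inner site, Uros-209 and Uros-210, were listed at 0 in both animals in the first quantification.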

How the data were processed

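Total RNA-seq of adrenal gland from 2 mice, 1 library each, was analysed from deposited tables. Per the files' descriptions, the gene and first transcript tables were derived by the authors from a transcriptome alignment (mm10, GENCODE M21). They hold expected counts (estimated, not whole), TPM over all entries with spike-ins, a posterior mean TPM, the deposited bounds of a TPM interval (a signal value without a stated level), and transcript shares in percent, deposited by the authors. The second transcript table, deposited with estimated counts and TPM, came from read files and an index. The sources used here do not name the programs or versions. The reads of this F1 cross were quantified on 1 reference genome, and the part of strain differences in the values was not tested.

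Expected counts, which were not whole, were rounded and scaled by edgeR's TMM factors (edgeR 4.0.16, R 4.3.3). Alternatives were DESeq2 1.42.0 size factors, total counts, spike-in totals, deposited TPM and the second table. Log2 ratios divide animal 2 by animal 1 after adding 0.5 to both counts, over genes whose expected count averaged 50 or more. The scaling and the ratio part of the 2-fold rule were tried on simulated counts. These had no TPM intervals, so the interval condition was not tested. Intervals of a ratio or share are 95% Wilson intervals and cover counting error only. A transcript was named at a share of at least 10% in both animals in either table. From each further list, the text names the 4 genes with the highest mean TPM, those under 0.1 TPM in both libraries and those at least 2-fold apart. Spike-in counts summed to 316894 and 256626. The members and lists were chosen with earlier results of these data known. Some genes of the further lists are not reported here.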

Additional observations from a re-analysis of the deposited data

How the results depend on the processing

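The count of 0 genes of the 9 at least 2-fold apart held under all 5 other scalings and without the interval condition. The other count filters could not change the calls of the 9 genes, each of which averaged over 50 expected counts. The summed TPM of the 9 genes, 482.9, was 808.1 in the second transcript table and 443.8 to 522.0 with 1 animal left out. Scaled over nuclear protein-coding genes the summed TPM was 1596. Counts per length of the principal transcript, scaled over the same genes, summed to 893. The Alas1 over Alas2 log2 ratio of 5.17 became 3.76 by principal transcript length (4.66 to 5.68 with 1 animal left out). Hmox1 over Hmox2, -0.43, became -1.04 in the second table, -0.23 without length correction and -0.09 by principal length (-0.53 to -0.33). Alas1 over Hmox1, 4.05, became 3.83, 3.55 and 2.44 in the same order (3.93 to 4.16). Over all genes, the 469 at least 2-fold apart became 786 without a count filter and 733 with a mean count of at least 10. The median log2 ratio of the 9 genes ranged from -0.20 (total counts) to 0.08 (spike-in totals), so its sign depends on the scaling. The order kept 6 to 9 of 9 places over its alternatives. Leaving out an animal gives no ratio between animals. No paired analysis was possible because the samples form 1 group. Scaling by principal transcript length, leaving out retained-intron transcripts in either table and the alternatives for the count over all genes were added after seeing the data. Each level rests on 2 animals, and Uros on no more than 289 expected counts per library.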
